A study of Rattus norvegicus with 15 samples.

Results

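The step from adult to early elderly rat knee cartilage was described by setting the 3 early elderly samples (T3) against the 3 adult samples (T2). These are 6 of the 15 samples of the series, and every gene on the array was compared. All samples are total RNA of articular cartilage taken from the right knee of Sprague-Dawley rats, each knee harvested on its own, and no treatment or genetic change is named for any group. The other stages, newborn (T0), youth (T1) and late elderly (T4), lend their spread to the tests and show where the adult level came from. No age in weeks, sex or scan batch of a sample was known here. Sample titles name biological replicates without saying more, so p-values measure the spread between these samples. T1 replicate 3 carries the adult stage in 1 of its labels and youth in the others, and was kept in youth.

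Articular cartilage is the smooth layer on the bone ends of a joint. Its only resident cells, the chondrocytes, live in a matrix of type II collagen fibrils and of aggrecan, a large proteoglycan held on hyaluronan by link protein. Beneath it lie calcified cartilage and bone with marrow, where neutrophils, red cells and B cells are made. Interferon-response genes are switched on together when cells sense viral nucleic acid or interferon, through a short promoter sequence, the interferon-stimulated response element.

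Each array gave a log2 signal, in which 1 unit is a doubling, for 36685 probe sets. Of these, 18511 carried a single gene symbol and named 18166 genes. The early elderly arrays spanned a narrower range of signals than the adult ones. The standard deviation over probe sets was 2.02 ± 0.03 in adult and 1.89 ± 0.07 in early elderly arrays (SD, n = 3), and was 1.86, 1.83 and 1.97 in T3 replicates 1, 2 and 3. Olfactory receptor genes (1185), a guide to signal without expression, had medians of 2.92 ± 0.07 and 3.21 ± 0.21. For both measures the stages did not overlap, and the exact two-sided permutation p was 0.1, the smallest that 3 against 3 can give. The mean correlation with the adult arrays was 0.929, 0.894 and 0.968 for T3 replicates 1, 2 and 3, so replicate 3 lay nearest to adult. Genes with a signal below 3 at T0 and T1 had a median difference of 0.29 between T3 and T2, and genes from 9 to 10 had -0.44. After cyclic loess normalization, which evens out such level-dependent shifts, these medians were 0.04 and -0.15. The median difference of all probe sets was 0.09, and -0.07 with arrays set to the same median and spread. The part of this narrowing in the results below was not tested, and medians of gene lists are given with their value after cyclic loess.

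**Figure D1:**
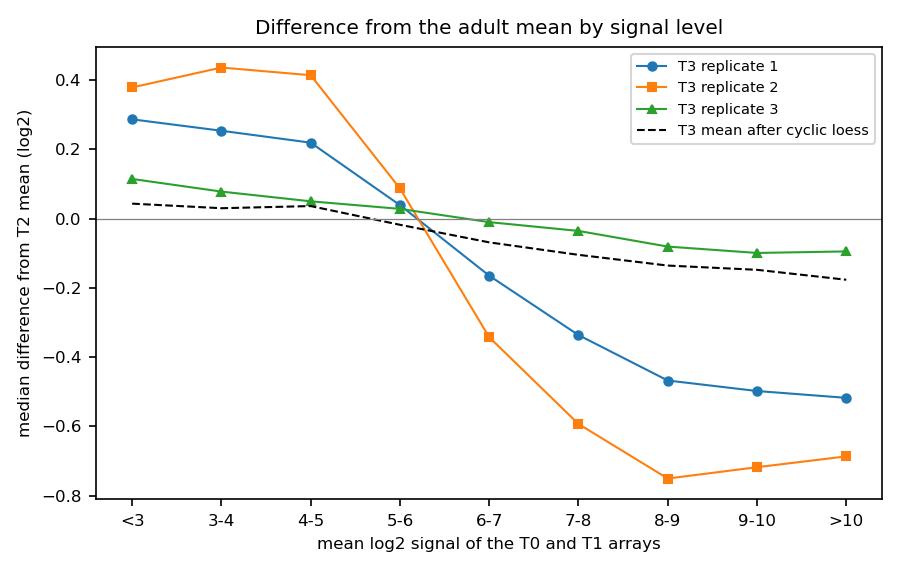
Median difference of each early elderly array from the adult mean (y axis, log2) for genes grouped by their mean log2 signal in the newborn and youth arrays (x axis). T3 replicate 2 runs from 0.44 to -0.75 and T3 replicate 3 from 0.11 to -0.10, while the medians after cyclic loess stay between 0.04 and -0.18.

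In the early elderly cartilage 21 named genes fell and 4 rose against adult. The falls held genes of white blood cells (Cxcr2, Trem1, P2ry13, Aoah, Selplg, Pik3r5, Tlr7, Oscar), of the cartilage matrix (Matn3, Hapln1) and of lipid handling (Plin2, Far2), and the interferon-induced Ifi27. The rises were Atp6ap1l, Mir551b, Or4c31 and Fbll1. Over probe sets 41 fell and 14 rose at a limma Benjamini-Hochberg adjusted p under 0.05, which is 0.15% of all (falls 0.112%, rises 0.0382%). Over genes the share was 0.138% (falls 0.116%, rises 0.022%). The arrays of the stages did not overlap for any of the 55 probe sets. At an unadjusted p under 0.05 there were 7264 probe sets (19.8%). Rises were 25.5% of the calls, against 38.0% after cyclic loess (92 rises, 150 falls) and none of 10 or 11 calls after quantile normalization or with arrays set to the same median and spread.

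These counts depend on how the spread is estimated. The T4 arrays vary most, and without them 932 probe sets fell (2.54%) and 963 rose (2.63%), together 5.17% of all. These named 799 genes (4.4%), with 546 falls (3.01%) and 253 rises (1.39%). All 25 genes were among them. Without T2 replicate 3 or T3 replicate 2 no probe set was called by limma (5661 and 4195 at an unadjusted p under 0.05), and without T3 replicate 3 there were 4165. The 25 genes kept their direction in all 17 other settings tried, or in all 16 for Fetub and Or4c31, which a filter on low values removed. Many of these settings could not change it. The stages did not overlap in these genes, so leaving out 1 array keeps the sign, and fits that alter only the spread keep the difference. The direction is therefore no separate support. Of the 25, 20 were called after cyclic loess, 6 after quantile normalization, 6 with arrays set to the same median and spread, 5 without T2 replicate 1, 6 without T3 replicate 1 and 0 with only the 6 arrays compared. Where a gene is described below as passing without T4, that refers to the fit to the 12 arrays of T0 to T3.

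**Figure D2:**
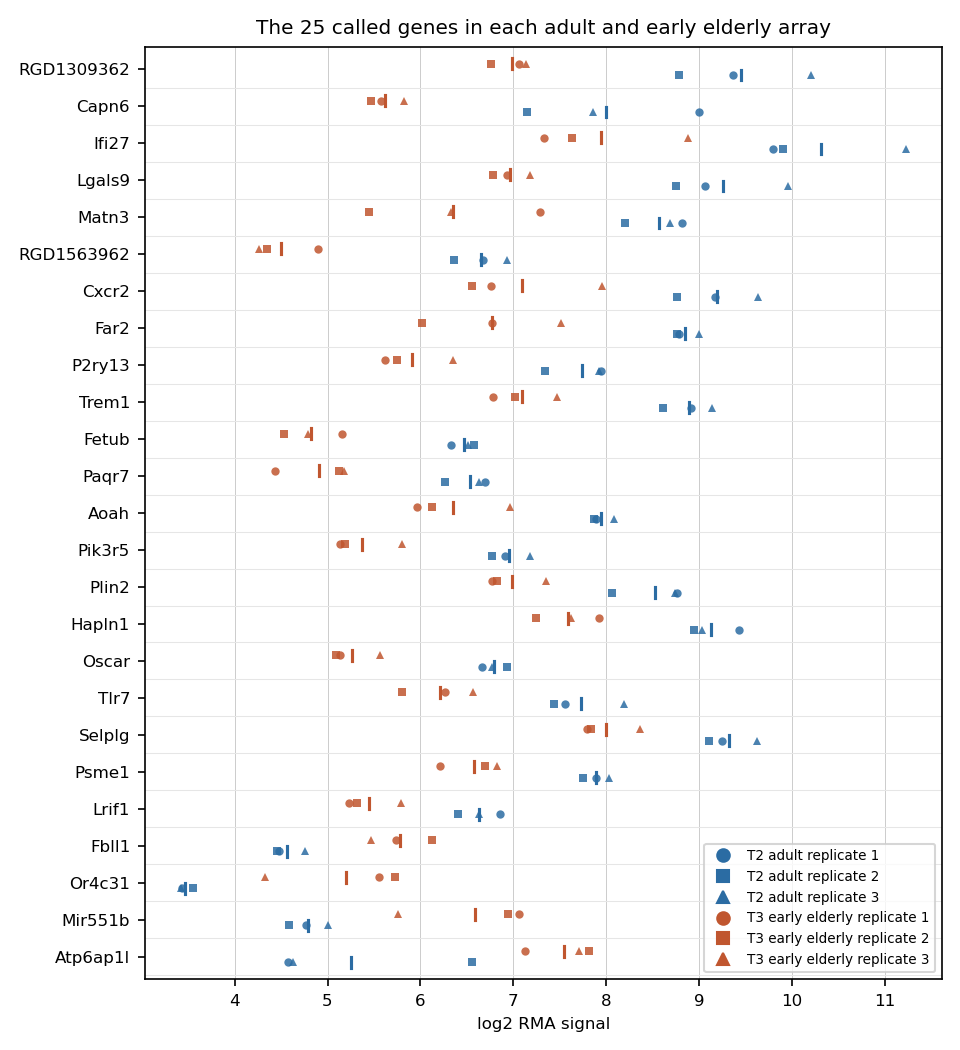
Log2 signal (x axis) of the 25 called genes in each of the 3 adult (blue) and 3 early elderly (orange) arrays, with symbols for replicates and a vertical tick at each stage mean. Adult and early elderly points do not overlap for any of these genes.

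Of 17 cartilage matrix genes 2 fell, and 16 had a lower mean in early elderly than in adult arrays. Matn3 encodes matrilin-3, an adaptor that links matrix fibrils. Its signal was 8.81, 8.20 and 8.69 in the adult arrays and 7.29, 5.44 and 6.33 in the early elderly arrays, a fall by 2.21 on the log2 scale (SE 0.37, 4.63-fold, limma adjusted p = 0.0388). All early elderly arrays lay below all adult ones, and T3 replicate 2 lay lowest. Hapln1, the link protein that ties aggrecan to hyaluronan, went from 9.42, 8.95 and 9.03 to 7.92, 7.24 and 7.62. It fell by 1.54 (SE 0.25, 2.91-fold, limma adjusted p = 0.038). After cyclic loess both missed the threshold (limma adjusted p 0.0621 for Matn3 and 0.133 for Hapln1), with changes of -1.91 and -1.24.

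The main collagen of cartilage was as much lower as Matn3, without passing the test. Col2a1, the type II collagen chain, read 12.34, 11.40 and 11.99 in adult and 10.35, 8.80 and 9.96 in early elderly arrays, a difference of -2.21 (SE 0.56, limma adjusted p = 0.0782). It passed without T4 (limma adjusted p = 0.0255). The stages did not overlap. Aggrecan, Acan, read 10.60, 9.77 and 10.15 against 8.96, 8.0 and 9.88, a difference of -1.22 (SE 0.47, limma adjusted p = 0.18). Here T3 replicate 3 lay inside the adult range. Col9a1 and Col11a1, chains of the minor fibril collagens, stood at -1.62 (SE 0.45) and -1.50 (SE 0.47), and Cnmd, the cartilage protein that keeps vessels out, at -1.48 (SE 0.34). None of these 3 passed, and all 3 did without T4. Sox9, the master regulator of chondrocytes, had means of 5.23 ± 0.09 and 5.12 ± 0.17 (SD, n = 3). In the adult arrays it read 5.25, 5.13 and 5.31, just above the 95th percentile of olfactory receptors there (4.80, 4.92 and 4.90). In the early elderly arrays it read 4.93, 5.22 and 5.21, where that percentile was 5.35, 5.58 and 4.96. T3 replicates 1 and 2 thus lay within the range of olfactory receptor signals, and the probe set was dim throughout.

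Across the cartilage matrix list the median difference was -0.89 (-0.73 after cyclic loess), against 0.01 over all genes. All 3 early elderly arrays lay below all 3 adult arrays for 9 of 17 members and above them for none. Over all genes these shares were 13.3% below and 13.4% above, against which the counts of the lists below are to be read. Without T4, 6 members fell. The list's mean signal was 8.41, 7.78 and 8.04 in the adult arrays and 7.37, 6.67 and 7.19 in the early elderly arrays, lowest in T3 replicate 2. Without T3 replicate 3 the median was -1.36. In bulk tissue, fewer cells of a type and less RNA per cell cannot be told apart. Matn1 (0.27, SE 0.23) was the member with a higher mean in early elderly arrays.

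No small leucine-rich proteoglycan passed the test. These proteins (11 measured) coat collagen fibrils and set their width. Their median difference was -0.88 (-0.62 after cyclic loess), and -0.34 without T2 replicate 1 or -0.52 without T3 replicate 2. The stages did not overlap for 1 of them, which lay below adult (9.09%, against 13.3% of all genes). That was Omd, osteomodulin, which read 9.88, 8.30 and 8.83 in adult and 7.26, 6.90 and 7.47 in early elderly arrays (-1.79, SE 0.44, limma adjusted p = 0.0744). Omd passed without T4. Prelp, a matrix anchor protein, read 10.06, 9.37 and 9.84 in adult arrays, 7.35 and 7.16 in T3 replicates 1 and 2, and 10.20 in T3 replicate 3. Fmod (fibromodulin), Chad (chondroadherin) and Bgn (biglycan) likewise were lower in T3 replicates 1 and 2 and within the adult range in T3 replicate 3. Dcn (decorin, -0.03, SE 0.51) and Lum (lumican, 0.03, SE 0.39) had nearly the same stage means.

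No gene of the cartilage zones passed. Among 12 genes of hypertrophy and mineralization, the programme of the deep calcifying layer, 3 did not overlap and lay below (25%, against 13.3% of all genes). Their median was -0.50 (-0.25 after cyclic loess, -0.26 without T2 replicate 1). Panx3, a channel protein of hypertrophic chondrocytes and osteoblasts, read 7.53, 7.14 and 7.08 in adult and 4.74, 5.02 and 4.86 in early elderly arrays. Its difference of -2.38 (SE 0.44, limma adjusted p = 0.0532) just missed the threshold and passed after cyclic loess and without T4. Col10a1, the collagen of hypertrophic cartilage, read 9.58, 8.45 and 8.90 against 6.99, 6.83 and 8.09 (-1.68, SE 0.38, limma adjusted p = 0.0674) and also passed without T4. Ihh, Fgfr3, Gli1 and Phospho1 of the same list had differences between -0.70 and -0.01.

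Of 11 superficial zone genes none passed, and 3 lay wholly below adult (27.3%, against 13.3% of all genes). Their median was -0.39 (-0.21 after cyclic loess), and leaving out 1 array moved it between -0.06 (T2 replicate 1) and -0.93 (T3 replicate 3). Vit, vitrin, a matrix protein, read 8.71, 6.93 and 7.52 against 6.16, 5.78 and 6.18 (-1.68, SE 0.33, limma adjusted p = 0.0564), and passed without T4. Prg4 encodes lubricin, the surface lubricant. It read 11.69, 9.79 and 11.38 in adult and 9.16, 9.28 and 11.01 in early elderly arrays (-1.14, SE 0.51, limma adjusted p = 0.237), and the stages overlapped. Mef2c, a transcription factor of hypertrophic chondrocytes, was the chondrocyte transcription factor with the largest difference of 12 measured (-1.21, SE 0.35, limma adjusted p = 0.102). It passed without T4, and the median of the 12 was -0.13 (-0.24 after cyclic loess). Col1a2, a chain of type I collagen, stood at -1.02 (SE 0.61, limma adjusted p = 0.362) and led 13 fibrillar and type VI collagens with a median of -0.15, or 0.10 after cyclic loess.

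Lists of matrix synthesis and export held no call. Among 24 secretory pathway and ER stress genes, 9 lay wholly below adult and none above, with a median of -0.46 (-0.30 after cyclic loess). Xbp1, the transcription factor of the unfolded protein response, read 9.72, 8.61 and 9.47 against 7.40, 7.29 and 8.47 (-1.55, SE 0.34), and Sec24d, a coat protein of vesicles leaving the ER, differed by -1.32 (SE 0.31). Both passed without T4, as did Atf6 and Sec61a1. Among 19 glycosaminoglycan synthesis genes 5 lay below and 1 above (median -0.45, -0.25 after cyclic loess). Papss2, which makes the sulfate donor for aggrecan's chains, differed by -1.64 (SE 0.45). Among 20 collagen biosynthesis genes 3 lay below, a share of 15% near the 13.3% of all genes, and none above (median -0.68, -0.44 after cyclic loess). Matrix proteases and their inhibitors (21) gave 5 below and none above (median -0.41, -0.42 after cyclic loess). Mmp13, the collagenase of cartilage, read 11.11, 9.96 and 10.11 against 9.70, 9.55 and 9.23 (-0.90, SE 0.67, limma adjusted p = 0.466).

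Interferon-response genes gave the lowest median of the 45 lists, -1.71 (-1.70 after cyclic loess), and 1 of 19 fell. Ifi27, an interferon-induced mitochondrial protein, read 9.80, 9.90 and 11.22 in adult and 7.33, 7.63 and 8.88 in early elderly arrays. It fell by 2.36 (SE 0.39, 5.14-fold, limma adjusted p = 0.0388), and after cyclic loess by 2.08 (limma adjusted p = 0.0787). All early elderly arrays lay below all adult arrays for 12 of 19 members and above for none. Ifit2, Ifih1, Stat2 and Ifi27 passed without T4.

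The adult arrays themselves differed widely in these genes. The mean signal over the list was 6.71, 7.46 and 8.91 in T2 replicates 1, 2 and 3, and 5.96, 6.21 and 6.49 in the early elderly arrays. The ubiquitin-like modifier Isg15 read 4.79, 6.58 and 8.91 in the adult arrays and 3.75, 4.21 and 4.79 in the early elderly arrays (-2.51, SE 0.72, limma adjusted p = 0.1). Irf7, the factor that amplifies the interferon response, read 6.95, 8.24 and 10.16 against 6.03, 6.83 and 6.69 (-1.93, SE 0.58). In both genes T2 replicate 3 was highest. Without it the list's median was -0.90, and without T2 replicate 1 it was -2.34. Oas1a had a higher mean in early elderly arrays (0.49, SE 0.42), and Rsad2 (-0.40, SE 0.68) overlapped.

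The core letters of the interferon-stimulated response element (GAAA, any 2 bases, GAAA) were searched on both strands over 250 bases before 1 start per gene, as RefSeq's promoter sequences give it. RefSeq promoter sequences (build GRCr8) were found for 11 of the 19 genes, and 7 of them held a match. Of all 33469 promoters of this length 3.41% did. Of the 21 genes that fell, 17 had an entry and 4 held a match (Ifi27, Lgals9, Aoah and Capn6). None of the 11 cartilage matrix genes and none of the 19 neutrophil and myeloid genes with an entry did. The letters GAGGAAGT, a site of the myeloid factor PU.1, were in 2.04% of all promoters, in 0 of the 17 falling genes, 1 of the 19 myeloid, 1 of the 11 interferon and 0 of the 11 cartilage genes. No promoter of these genes held both patterns. A match is a description of the letters and not a bound site. The promoters of the called genes Ifi27 and Lgals9 and of Irf7 and Ifi44, chosen after the matches were seen, are printed to let the position of the letters be compared. Capitals mark the match.
Ifi27, chr6:128355062-128355311, plus strand: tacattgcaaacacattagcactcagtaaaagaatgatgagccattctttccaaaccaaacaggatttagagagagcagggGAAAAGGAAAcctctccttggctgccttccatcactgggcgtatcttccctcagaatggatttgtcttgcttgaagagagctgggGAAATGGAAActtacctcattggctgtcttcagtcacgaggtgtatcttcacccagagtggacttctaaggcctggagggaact
Lgals9, chr10:64428071-64428320, minus strand: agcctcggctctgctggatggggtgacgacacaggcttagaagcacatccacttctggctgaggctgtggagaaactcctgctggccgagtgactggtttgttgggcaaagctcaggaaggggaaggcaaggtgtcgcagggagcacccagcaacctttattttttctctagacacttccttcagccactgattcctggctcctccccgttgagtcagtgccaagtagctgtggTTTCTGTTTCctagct
Irf7, chr1:205800024-205800273, minus strand: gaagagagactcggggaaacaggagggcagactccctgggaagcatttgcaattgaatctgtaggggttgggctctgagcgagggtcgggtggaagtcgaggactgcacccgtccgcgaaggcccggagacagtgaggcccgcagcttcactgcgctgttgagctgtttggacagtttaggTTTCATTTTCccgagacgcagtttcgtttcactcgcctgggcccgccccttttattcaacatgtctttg
Ifi44, chr2:243303841-243304090, minus strand: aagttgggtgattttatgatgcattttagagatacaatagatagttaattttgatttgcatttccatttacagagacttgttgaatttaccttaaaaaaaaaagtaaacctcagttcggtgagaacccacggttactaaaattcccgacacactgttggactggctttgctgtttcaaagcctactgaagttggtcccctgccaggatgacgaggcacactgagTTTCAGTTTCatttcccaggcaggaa
The Ifi27 promoter holds 2 matches, whose first bases lie at -169 and -84, counted from that start. In Lgals9 the single match begins at -16, in Irf7 at -69 and in Ifi44 at -26. In these 3 the letters lie on the other strand and read as TTTC, 2 bases, TTTC. The annotated spans of Lgals9, Irf7 and Ifi44 reach farther upstream than the start used, so their matches lie inside the annotated gene.

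Lgals9 itself encodes galectin-9, a sugar-binding protein that acts on T cells. It read 9.06, 8.75 and 9.95 in adult and 6.93, 6.78 and 7.18 in early elderly arrays, and fell by 2.29 (SE 0.28, 4.88-fold, limma adjusted p = 0.00864). The early elderly arrays lay close together and more than 1 unit below the adult ones. Psme1, a subunit of the proteasome activator that interferon induces, read 7.88, 7.75 and 8.03 against 6.21, 6.69 and 6.83 and fell by 1.31 (SE 0.21, 2.48-fold). Tlr7, the sensor of single-stranded RNA, read 7.55, 7.44 and 8.19 against 6.26, 5.80 and 6.56 and fell by 1.52 (SE 0.26, 2.86-fold). These genes are not in the interferon list.

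Several of the genes that fell are known from neutrophils and monocytes. Trem1, an activating receptor of these cells, read 8.91, 8.61 and 9.13 in adult and 6.78, 7.02 and 7.47 in early elderly arrays (fell by 1.79, SE 0.22, 3.47-fold, limma adjusted p = 0.00864). P2ry13, an ADP receptor, read 7.94, 7.34 and 7.92 against 5.62, 5.75 and 6.35 (fell by 1.83, SE 0.23, 3.56-fold). Cxcr2, the chemokine receptor that draws neutrophils out of the marrow, read 9.17, 8.76 and 9.63 against 6.76, 6.56 and 7.95 (fell by 2.10, SE 0.38, 4.28-fold, limma adjusted p = 0.0489). T3 replicate 3 was the highest early elderly array in each of the 3, still below every adult array. Aoah, which detoxifies bacterial lipopolysaccharide, fell by 1.60 (SE 0.28). Pik3r5, a subunit of the leukocyte PI3-kinase, fell by 1.58 (SE 0.27). Selplg, the selectin ligand by which leukocytes roll on vessels, fell by 1.32 (SE 0.22).

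Of 23 neutrophil and myeloid genes 1 fell (Cxcr2), 14 lay wholly below adult and 2 above, and the median was -0.74 (-0.50 after cyclic loess, -0.30 with arrays set to the same median and spread). Mpo, the myeloperoxidase of neutrophil granules, read 12.05, 11.78 and 12.07 against 10.77, 10.68 and 11.56 (-0.96, SE 0.64, limma adjusted p = 0.41). Elane, neutrophil elastase, differed by -0.97 (SE 0.49). S100a8 (0.05, SE 0.81), S100a9 (-0.09, SE 0.67) and Prtn3 (0.02, SE 0.36) had nearly equal stage means. Stfa2 and Mcpt8, a basophil protease, lay wholly above adult: Mcpt8 read 8.11, 8.76 and 9.73 in adult and 10.76, 11.51 and 10.54 in early elderly arrays (2.07, SE 1.06, limma adjusted p = 0.292), and both passed without T4. Over the whole list 7 of 23 genes fell and 2 rose without T4, against 3.01% and 1.39% of all genes. The list's mean signal was 10.16, 10.03 and 10.45 in the adult and 9.32, 9.60 and 9.83 in the early elderly arrays.

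**Figure D3:**
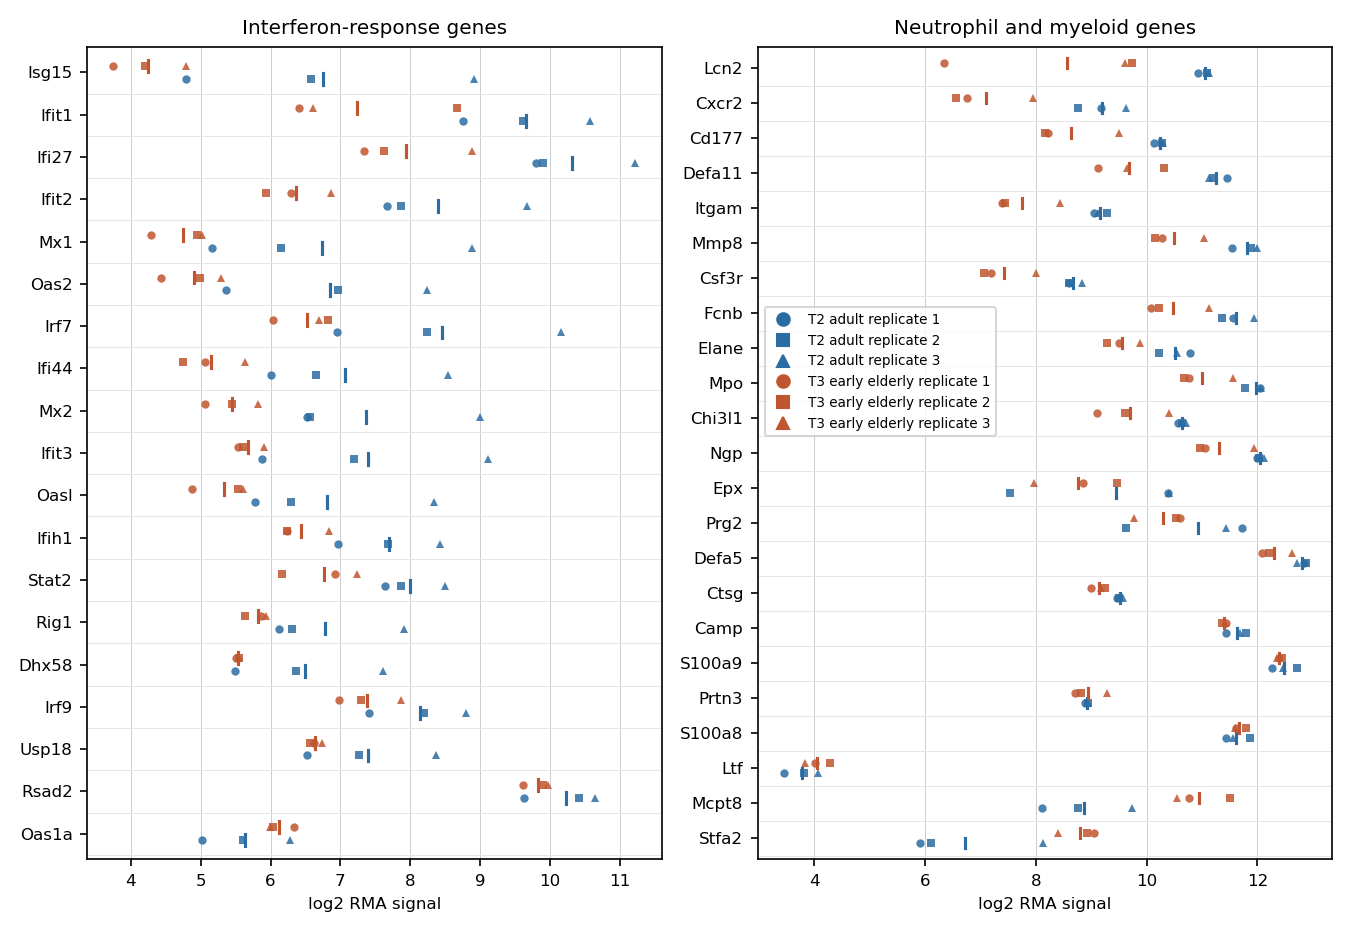
Log2 signal (x axis) of 19 interferon-response genes (left) and 23 neutrophil and myeloid genes (right) in each adult (blue) and early elderly (orange) array, with ticks at stage means. T2 replicate 3 is the highest adult array in the interferon genes such as Isg15 at 8.91, while the adult arrays lie close together in myeloid genes such as Cxcr2 between 8.76 and 9.63.

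Osteoclast genes were lower, with 1 of 7 called. Oscar, a collagen receptor that aids osteoclast formation and is also found on myeloid cells, read 6.66, 6.93 and 6.77 in adult and 5.14, 5.09 and 5.56 in early elderly arrays. It fell by 1.52 (SE 0.25, limma adjusted p = 0.038). The list's median was -0.91 (-0.66 after cyclic loess, -0.55 without T2 replicate 1), and 4 of 7 lay wholly below adult, among them Mmp9 (-1.74, SE 0.63) and Ctsk, the collagen-cutting cathepsin K (-0.91, SE 0.49). Car2 (-0.06, SE 0.68) showed almost no difference. Of 18 osteoblast and osteocyte genes none passed, 7 lay below and 2 above (median -0.53, -0.25 after cyclic loess, -0.22 without T2 replicate 1). A lower mean in early elderly arrays was seen in 16 of the 18. Without T4, 3 fell and 1 rose, against 3.01% and 1.39% of all genes. Sost, an osteocyte inhibitor of bone formation, went against most of the list and was the 1 that rose. It read 6.43, 6.19 and 6.47 against 7.15, 7.48 and 7.03 (0.85, SE 0.21, limma adjusted p = 0.075), wholly above adult.

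Markers of other cell types are present in both stages, and their part in the results was not tested. Red cell genes were bright and nearly equal: over 15 erythroid genes the median was -0.02 (0.21 after cyclic loess), none lay wholly below and 1 lay above, Hemgn had means of 11.18 and 11.16 and the anion exchanger Slc4a1 10.69 and 10.65. Of 17 B cell genes none passed, 6 lay below (35.3%, against 13.3% of all genes) and 1 above (median -0.36, -0.30 after cyclic loess). Among the 6, Rag2, which cuts antigen receptor genes, differed by -1.48 (SE 0.33) and Ebf1, an early B cell factor, by -1.11 (SE 0.37), both passing without T4, while Cd79a differed by -0.24 (SE 0.26). Of 20 macrophage and MHC class II genes none passed, and 5 lay below (25%) and none above (median -0.17, -0.11 after cyclic loess). The lysosomal marker Cd68 read 8.43, 7.46 and 8.32 against 6.83, 7.31 and 7.22 (-0.95, SE 0.28), the receptor Csf1r differed by -0.53 (SE 0.42) and C1qa by 0.14 (SE 0.29). Skeletal muscle genes were dim and went the other way: 0 of 24 passed, 8 lay wholly above adult and none below (median 0.54, 0.62 after cyclic loess, but -0.10 with T1 replicate 3 placed in adult). Ckm, muscle creatine kinase, read 5.60, 5.91 and 5.84 against 6.97, 7.06 and 7.20 (1.29, SE 0.43, limma adjusted p = 0.138). It passed without T4 and after cyclic loess. The muscle list's mean signal was 4.85 to 5.13 in the adult and 5.25 to 5.80 in the early elderly arrays. The T cell markers Cd3d and Cd3e and the tendon marker Tnmd stayed within the range of olfactory receptor signals in all 6 arrays. Scx of tendon lay above the olfactory receptor 95th percentile in all 6. It read 5.36, 5.35 and 5.49 against 6.33, 6.86 and 5.57 (0.85, SE 0.33). Of 17 tendon, ligament and synovium genes none passed, 1 lay below and 1 above (median -0.26, -0.16 after cyclic loess). Cd8a of T cells read 5.80, 5.57 and 5.63 against 5.37, 4.94 and 5.26 (-0.48, SE 0.20), above that percentile except in T3 replicate 2. Of 21 T cell and NK genes none passed, 4 lay below and 1 above (median 0.01, -0.17 after cyclic loess). Fat cell markers Adipoq and Plin1 had means of 5.07 and 5.21 in adult and 5.75 and 5.82 in early elderly arrays. The list of 17 fat cell genes did not share this direction. None passed, 2 lay below and 4 above, and 9 had a lower mean in early elderly arrays (median -0.14, -0.01 after cyclic loess).

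Other called falls belong to no list. Capn6, a calpain without protease activity, read 9.0, 7.15 and 7.85 in adult and 5.57, 5.47 and 5.82 in early elderly arrays and fell by 2.38 (SE 0.38, 5.2-fold, limma adjusted p = 0.038). It had been higher still at T0 (11.75) and T1 (9.92), so its level was lower at each later stage. Plin2, the coat protein of lipid droplets, read 8.76, 8.06 and 8.74 against 6.77, 6.82 and 7.35 (fell by 1.54, SE 0.22, 2.91-fold). Far2, which turns fatty acids into fatty alcohols, fell by 2.08 (SE 0.33, 4.22-fold). Fetub, fetuin-B, a secreted protease inhibitor, read 6.32, 6.58 and 6.51 against 5.16, 4.53 and 4.79 (fell by 1.65, SE 0.22). Paqr7, a membrane progestin receptor, fell by 1.62 (SE 0.24) and the nuclear protein Lrif1 by 1.19 (SE 0.20). RGD1309362 and RGD1563962 fell by 2.46 (SE 0.32) and 2.15 (SE 0.30). Among the genes that fell, all 3 early elderly arrays of RGD1563962 and Fetub lay within the olfactory receptor range, as did 2 of those of Paqr7, Pik3r5, Oscar and Lrif1 and 1 of those of Capn6 and Matn3. Trim30d had 1 probe set that fell by 2.62 (SE 0.45, limma adjusted p = 0.0404) and a brighter one that did not pass (-1.13, SE 0.36).

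Few named genes rose. Atp6ap1l, a relative of an accessory subunit of the vacuolar proton pump, read 4.57, 6.55 and 4.62 in adult and 7.12, 7.81 and 7.71 in early elderly arrays (rose by 2.30, SE 0.40, limma adjusted p = 0.0431), and 2 of the 3 adult values lay within the olfactory receptor range. The adult arrays were themselves spread, with T2 replicate 2 near the T1 mean of 6.77. Fbll1, a relative of the nucleolar RNA methyltransferase fibrillarin, rose by 1.21 (SE 0.21) from 4.57 ± 0.17 to 5.78 ± 0.33 (SD, n = 3), and all 3 adult arrays lay within the range of olfactory receptors, taken as up to their 95th percentile on the same array. Or4c31, an olfactory receptor gene, rose by 1.73 (SE 0.31) from 3.47 ± 0.07 to 5.20 ± 0.76 (SD, n = 3). It read 5.55, 5.73 and 4.33 in the early elderly arrays, where the 95th percentile of olfactory receptors was 5.35, 5.58 and 4.96, so T3 replicate 3 lay within their range, as did all 3 adult arrays. No fold is given for these rises, since the adult level was not above background on most arrays.

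Mir551b was the only microRNA gene called of 363. MicroRNAs are short RNAs that pair with messenger RNAs through their seed, bases 2 to 8. The array's probe sets are labelled for the gene, and whether precursor or mature RNA gives the signal was not tested. Mir551b read 4.77, 4.58 and 5.01 in adult and 7.06, 6.94 and 5.76 in early elderly arrays, and rose by 1.80 (SE 0.30, limma adjusted p = 0.0399), with 2 of the 3 adult values within the olfactory receptor range. T3 replicate 3 lay between the adult arrays and the other early elderly ones. Without T4 18 microRNA genes passed (4.96%, against 4.4% of all genes), 15 of them upward. The directions differed from those of all genes, of which 1.39% rose and 3.01% fell without T4. The 18 microRNA genes have 28 mature forms in RefSeq (17 genes matched), with 28 different seeds. All mature forms that RefSeq (build GRCr8) gives for the 5 of these genes with the largest differences are printed with the seed in capitals.
rno-miR-551b-3p, chr2:115917713-115917735, minus strand: gGCGACCCauacuugguuucagu
rno-miR-551b-5p, chr2:115917751-115917773, minus strand: gAAAUCAAgcuugggugagaccu
rno-miR-181d-5p, chr19:40888484-40888506, plus strand: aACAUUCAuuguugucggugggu
rno-miR-181d-3p, chr19:40888526-40888545, plus strand: cCACCGGGggaugaauguca
rno-miR-423-5p, chr10:62412317-62412340, minus strand: uGAGGGGCagagagcgagacuuuu
rno-miR-324-5p, chr10:55233378-55233400, plus strand: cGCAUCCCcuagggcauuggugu
rno-miR-324-3p, chr10:55233413-55233434, plus strand: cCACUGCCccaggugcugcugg
rno-miR-1224, chr11:93811355-93811375, minus strand: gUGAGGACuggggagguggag
Mir181d read 6.58, 6.81 and 7.22 in adult and 8.83, 9.14 and 7.58 in early elderly arrays (1.65, SE 0.34), Mir423 had 3.53, 4.40 and 3.89 against 5.74, 5.96 and 4.72 (1.53, SE 0.31), and Mir324 had 5.55, 5.88 and 5.75 against 6.96, 7.90 and 6.39 (1.35, SE 0.31). In each of them T3 replicate 3 was the early elderly array nearest to adult. Mir1224 went the other way, from 8.88, 7.33 and 8.80 to 4.28, 5.06 and 7.16 (-2.84, SE 0.60). These 4 missed the threshold in the fit with T4 (limma adjusted p 0.0628, 0.0568, 0.0689 and 0.0633).

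Of the 363 microRNA genes 95 lay wholly above adult and 13 below, with a median of 0.25, against 0.04 after cyclic loess. Over all genes 13.4% lay above and 13.3% below. Dim genes of any kind read higher in T3 replicates 1 and 2, as the plot by signal level shows, and its part here was not tested. Of 39 lncRNA genes none was called (7 at an unadjusted p under 0.05 in limma), 10 lay above and none below. Terc, the RNA template of telomerase, read 5.98, 6.30 and 6.13 in adult and 8.41, 7.47 and 7.09 in early elderly arrays (1.52, SE 0.28, limma adjusted p = 0.0532) and passed without T4, with 1.65 after cyclic loess.

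Of the 55 called probe sets 29 carry no single gene symbol. Probe set 17612397 read 7.69, 8.66 and 7.86 in adult and 4.10, 4.93 and 5.20 in early elderly arrays (fell by 3.33, SE 0.40), and 17600283 fell by 3.12 (SE 0.45). Probe set 17668408 read 7.29, 6.92 and 6.52 against 9.91, 10.87 and 8.47 (rose by 2.84, SE 0.46), and 17633561 rose by 2.11 (SE 0.35). A pair of the 55 probe sets held equal values in every array.

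The step was then compared with the one before it, from youth to adult. The test was the difference of the steps, (T3 minus T2) minus (T2 minus T1), and both share the adult arrays. The youth to adult step itself gave 327 probe sets (0.891%) in 230 genes (1.27%). In 99 genes (0.545% of 18166) the steps differed, 67 (0.369%) with a difference below 0 and 32 (0.176%) above. All 67 had their highest mean of T1, T2 and T3 in adult, and 31 of the 32 had their lowest there. This does not mean that each step passed by itself: Pik3r5, among the 67, differed by 0.90 from T1 to T2 (limma adjusted p = 0.185).

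Among the 67 were several genes of white blood cells. Trem1 had means of 7.08, 8.89 and 7.09 at T1, T2 and T3 (difference of steps -3.60, SE 0.39, limma adjusted p = 0.00155). P2ry13 had 5.78, 7.74 and 5.91 (-3.79, SE 0.39). The inflammasome-related Nlrp12 had 4.87, 6.58 and 5.63 (-2.66, SE 0.32). Outside this group, the secreted protease inhibitor Fetub had 4.70, 6.47 and 4.83 (-3.42, SE 0.38). Of the neutrophil and myeloid list 3 of 23 were among the 67. The called cartilage genes are an example of another course. Matn3 had 9.87, 8.57 and 6.35 and Hapln1 10.17, 9.13 and 7.59 over the same stages, and the difference of steps was not called for either (limma adjusted p 0.657 and 0.727), with values of -0.91 (SE 0.64) and -0.50 (SE 0.43). Capn6 was likewise not called (-0.46, SE 0.66). Of the cartilage matrix list Matn1 was called, with means of 7.76, 5.42 and 5.69 (2.61, SE 0.40, limma adjusted p = 0.0114).

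Of 24 skeletal muscle genes 8 were among the 32. Acta1, muscle actin, had means of 9.51, 5.29 and 6.13 (difference of steps 5.07, SE 0.54, limma adjusted p = 0.00155), and Mybpc2, a myosin-binding protein of fast muscle, had 7.16, 4.59 and 5.28 (3.26, SE 0.37). Neither passed between adult and early elderly (Acta1 0.85, SE 0.31 and Mybpc2 0.69, SE 0.21), though Mybpc2 did without T4. Acta1 stood at -0.14 with T1 replicate 3 placed in adult. These calls rest on the label of T1 replicate 3: with that array placed in adult, 4 probe sets were called and none of the 137 was among them. The mean correlation of T1 replicate 3 was 0.977 with the other youth arrays and 0.963 with the adult arrays. Its Acta1 read 9.24, against 9.40 and 9.90 in the other youth arrays and 5.06, 5.53 and 5.26 in adult. With T1 replicate 3 placed in adult, the step from adult to early elderly itself gave 47 probe sets. Of these, 27 were among the 55, and 14 of the 25 named genes were still called.

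**Figure D4:**
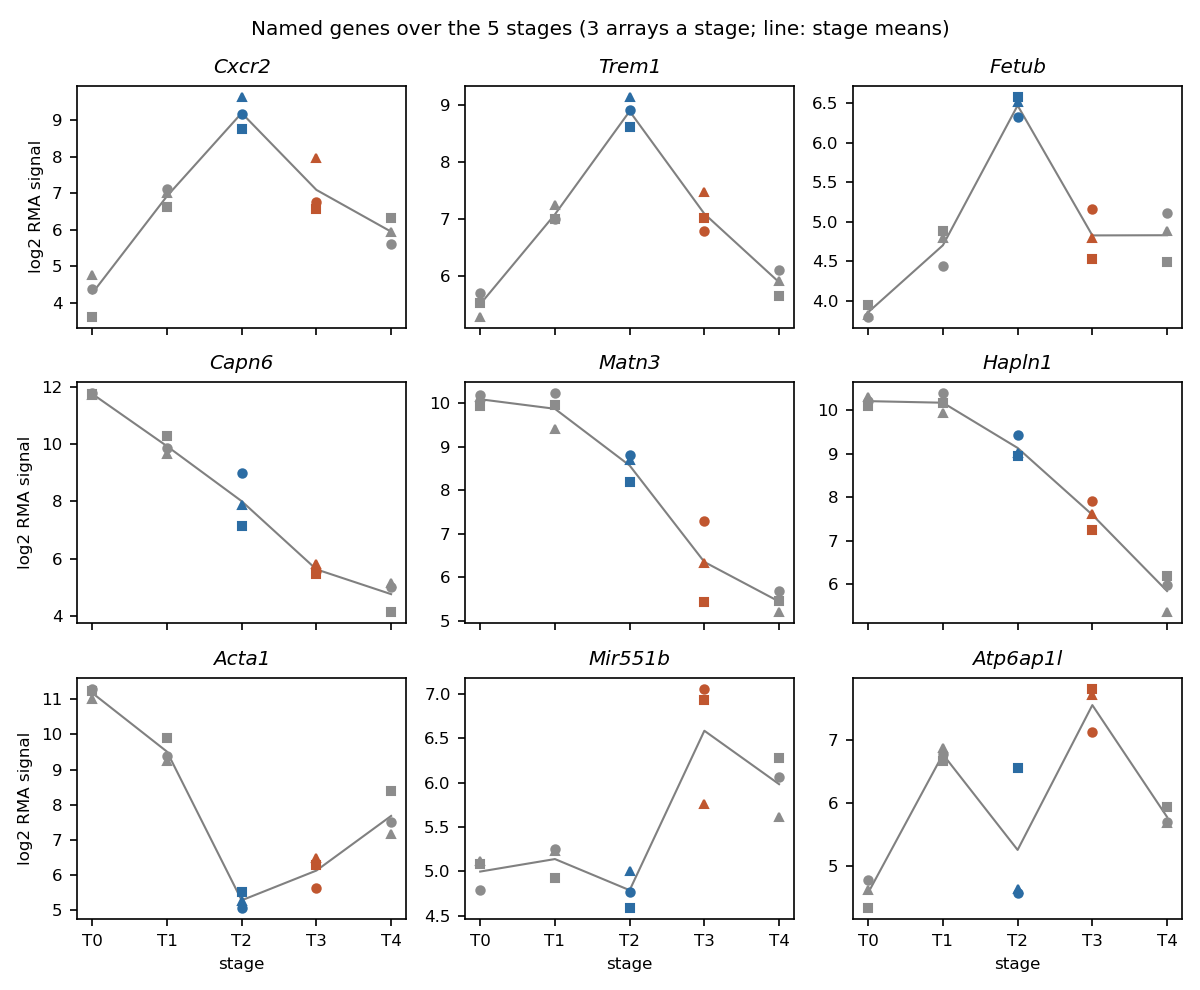
Log2 signal (y axis) of named genes in every array of the 5 stages (x axis), with the line through stage means, adult in blue, early elderly in orange and other stages in grey. Cxcr2, Trem1 and Fetub are highest in adult, and Mir551b is above its earlier levels from T3. Its T4 replicates 1 and 3 lie within the olfactory receptor range of their arrays. Capn6, Matn3 and Hapln1 have a lower mean at each later stage, though T0 and T1 arrays overlap for Matn3 and Hapln1. T3 and T4 arrays overlap for Matn3. All T4 arrays of Matn3 and Capn6 lie within the olfactory receptor range.

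The remaining lists held no call, and some had medians near 0. The 39 cytosolic ribosomal protein genes had a median of 0.07 (0.21 after cyclic loess), with 4 below and 2 above. The 15 genes of cell cycle arrest and senescence had a median of 0.01 (0.13 after cyclic loess), with 1 below and 2 above. The 24 oxidative phosphorylation genes had 0.01 (0.31 after cyclic loess), with 2 below and 3 above. Cell cycle genes (32) differed from these in their counts, with 9 below (28.1%, against 13.3% of all genes) and 1 above, and had a median of -0.26, or -0.01 after cyclic loess. Of the 26 antioxidant enzymes 4 lay below and 1 above, with a median that changed sign, from -0.16 to 0.10, after cyclic loess. Inflammatory mediators (22) had a median of -0.03 (0.02 after cyclic loess), with 3 below and 4 above.

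**Figure D5:**
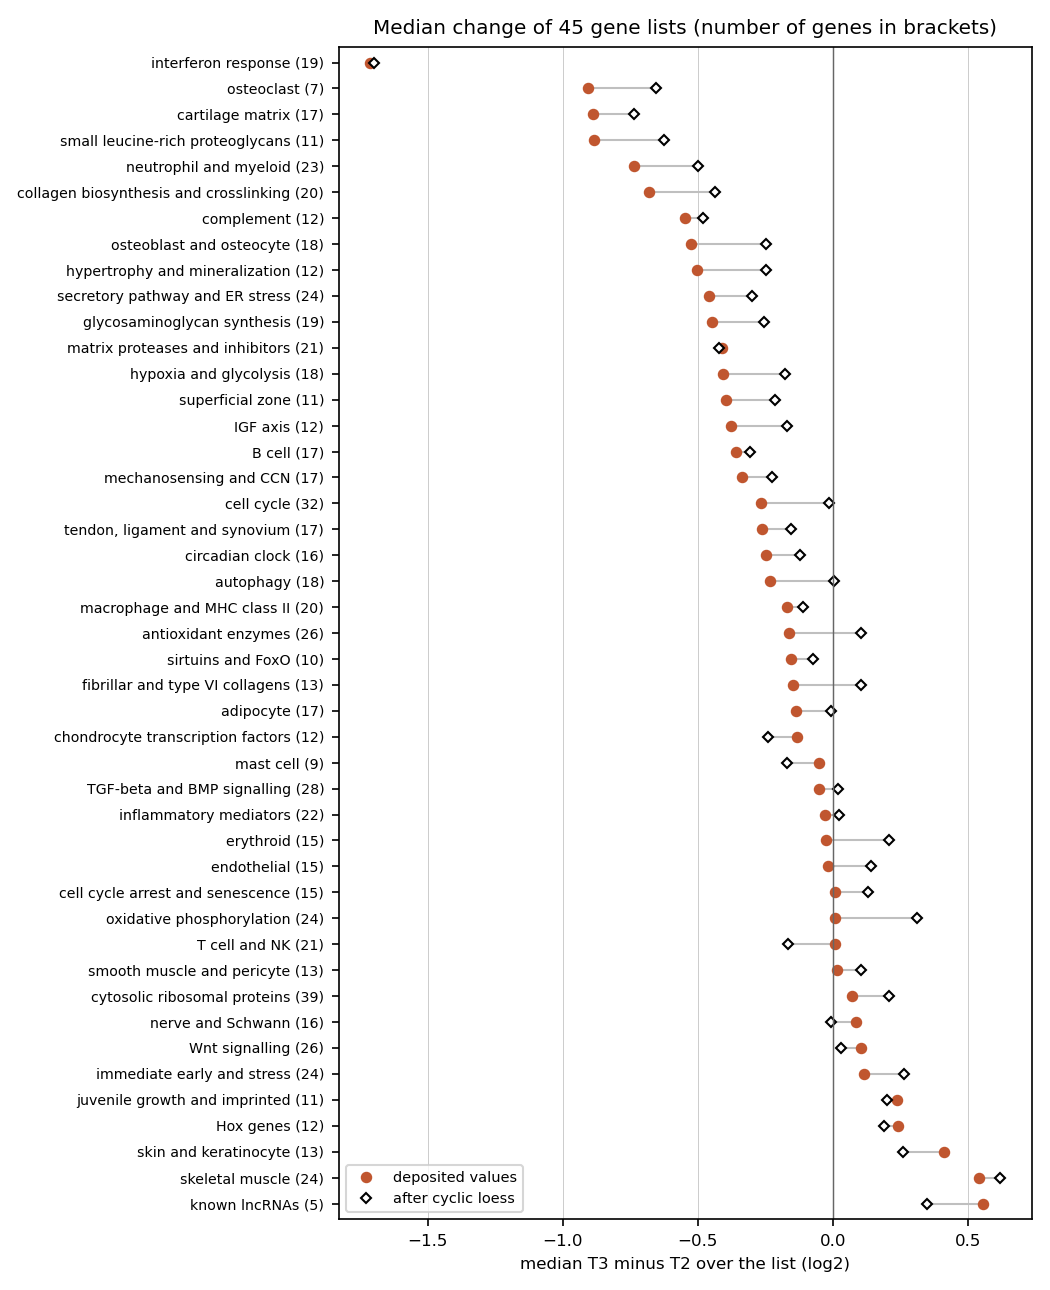
Median difference between early elderly and adult (x axis, log2) over each of 45 gene lists, with the number of genes in brackets. Orange points are the deposited values and open diamonds the values after cyclic loess: the interferon list is lowest at -1.71 and -1.70, and muscle lies at 0.54 and 0.62.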

How the data were processed

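The deposited values are log2 signals of RaGene 2.0 ST arrays. Per the submitters' processing notes, RMA produced them. Version and genome build: not given in the sources used here. RMA usually includes a step that makes signal distributions alike across arrays, but those of the deposited values differ (SD over probe sets 1.48 to 2.05). The main results use the values as deposited. Probe sets were named from the platform annotation: 18511 had 1 symbol, 575 several and 17599 none, and 18394 of the first matched RefSeq by Entrez identifier. For 291 genes with more than 1 probe set, the brightest over the 15 samples was used. Older names in the lists were matched through the RefSeq table.

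With limma 3.58.1 (R 4.3.3) 1 mean per stage was fitted over the 15 arrays, and the procedure was tested on simulated data. Calls are probe sets with an adjusted p under 0.05 (Benjamini-Hochberg, over 36685 probe sets). Lists are described by counts and medians, with no test. The members and lists were chosen with earlier results of these data known. Genes named are the 12 largest called rises and falls without overlap, leaving out symbols starting with LOC, RGD, AABR, Olr, Mir, Snor, Vom or Tas, up to 4 called members per list, the largest difference of a tissue list with no call, up to 3 called microRNA and 3 other non-coding genes in each direction, the 6 genes with the smallest p for the difference of steps, and Col2a1, Acan, Prg4, Col10a1, Sox9 and Mmp13. Other genes were chosen after their values were seen. Replicate numbers do not pair the samples: deviations of T2 and T3 arrays with the same number correlated at -0.10, -0.12 and -0.17. For arrays, their number limits the precision. Alternatives are other normalizations, samples left out, weights, a filter, a block and T1 replicate 3 placed with adult.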

Additional observations from a re-analysis of the deposited data

How the results depend on the processing

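The count of probe sets changed from adult to early elderly was 55. It was 242 after cyclic loess normalization (92 rises), 10 after quantile normalization and 11 with arrays set to the same median and median absolute deviation (no rises in either), 85 with a trend and robust prior, 136 with a filter on low values, 1895 without the T4 arrays, 10464 with array weights and 934 without T4 and after cyclic loess, an alternative chosen after seeing the data. It was 0 by limma with only the 6 arrays compared (6886 at an unadjusted p under 0.05). Leaving out 1 array gave 0 to 4165: 0 without T2 replicate 3 or T3 replicate 2, 10 without T3 replicate 1, 15 without T2 replicate 1, 76 without T2 replicate 2 and 4165 without T3 replicate 3. The share of rises among calls was 25.5%, and it was 38.0% after cyclic loess, 0% after quantile normalization, 50.8% without T4 and 56.4% with array weights.

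With a replicate block, T2 and T3 replicates sharing only a number, the step gave 32 calls and the difference of steps 122.

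The difference between this step and the one before gave 137 calls: 232 after cyclic loess, 33 after quantile normalization, 30 with the same median and spread, 360 without T4, 4304 with array weights, 378 without T4 and after cyclic loess and 4 with T1 replicate 3 placed with adult. Leaving out 1 array gave 19 (T2 replicate 3) to 727 (T3 replicate 3), with 46 and 38 without T2 replicates 1 and 2. Acta1 changed sign from adult to early elderly with T1 replicate 3 placed with adult (-0.14). The causes of these differences were not tested. The medians of the cartilage matrix, interferon, myeloid and osteoclast lists kept their sign in all 17 settings.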
